A study of Homo sapiens with 4 samples.

Results

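The genes described here are the matrix-degrading proteases and their inhibitors, measured by RNA sequencing in A549 cells, a human lung adenocarcinoma line. They were taken from the gene count table by symbol, as every matrix metalloproteinase (MMP), ADAM and ADAMTS gene and TIMP1 to TIMP4, plus the plasminogen activators PLAU and PLAT, the urokinase receptor PLAUR, the membrane inhibitor RECK and the heparanase HPSE. This gave 74 of 28278 genes, of which 24 were MMPs, 22 ADAMs and 19 ADAMTS genes. The labels describe a stable line overexpressing CBX7, a Polycomb subunit, and a stable control line that received a control construct and has the genotype label WT, both made with lentivirus; each line gave 2 libraries of total RNA. Both lines had thus been through lentiviral infection, and nothing in the labels says whether a line is a clone or a pool, or whether its 2 libraries stem from separate cultures, so that the spread behind each p-value may be technical. The series title places CBX7 in metastasis of lung adenocarcinoma; the comparison here asks which proteases and inhibitors differ between the lines.

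MMPs are zinc endopeptidases that are made as inactive precursors and cleave collagens, laminins and other matrix proteins; most are secreted, and the membrane-type members stay anchored at the cell surface. ADAMs are membrane proteins that shed growth factors, cytokines and receptors from the cell surface, while ADAMTS proteases are secreted and cut proteoglycans, procollagens and other matrix proteins. TIMPs block MMPs and, to differing degrees, ADAMs, and the plasminogen activators make plasmin, which degrades fibrin and matrix and can activate some MMP precursors. In carcinomas these enzymes are best known for invasion through basement membrane, and much of the supply in a tumour comes from stromal cells that a cell line culture lacks.

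Library totals were 90765502 and 88861255 estimated counts for CBX7 libraries 1 and 2, and 88091494 and 69877585 for control libraries 1 and 2. CPM below is the count scaled to the library total and its TMM factor, so 3 counts correspond to between 0.0320 and 0.0440 CPM. The CPM of a gene can be compared between libraries. Shares and rankings of members by level use CPM per kilobase of exon. Marker sums, overlapping genes, the list of other genes and the cutoff for naming members use plain CPM, which does not correct for gene length. CBX7 itself had 19.0 and 17.2 CPM in the CBX7 libraries, against 7.998 and 8.735 CPM in the control libraries (log2 fold change 1.11, SE 0.156, adjusted p = 0.000141, edgeR). The epithelial markers KRT8 and KRT18 and the A549 genes AKR1B10 and ALDH1A1 were at 4553 CPM or more in every library, whereas EPCAM was at 1.61 CPM or less and KRT19 at 0.453 CPM or less. Of 8 leukocyte markers, CD3E was at 0 throughout, PTPRC reached 0.0961 CPM at most, CSF1R reached 0.546 CPM at most and LYZ 0.0665 CPM at most. CD68 had 23.6 and 23.6 CPM in the CBX7 libraries, against 158 and 165 CPM in the control libraries, and made up most of the summed list, which was at 27.8 and 27.1 CPM with CBX7 and at 166 and 171 CPM in the controls. ITGAM was lower with CBX7 as well, at 0.822 and 0.820 CPM, against 6.13 and 4.59 CPM in the controls, whereas CD14 was higher, at 3.09 and 2.52 CPM with CBX7, against 1.25 and 1.36 CPM in the controls. The part of these differences in the results below was not tested. The summed level of 8 fibroblast markers was 8.91 and 8.05 CPM with CBX7 and 5.71 and 8.28 CPM in the controls, with THY1 at 0, and that of 7 endothelial markers 3.53 and 3.90 CPM with CBX7 and 1.65 and 1.03 CPM in the controls. CDH5 was the only endothelial marker above 1 CPM in any library, at 2.69 and 3.115 CPM with CBX7 and 1.22 and 0.513 CPM in the controls.

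Promoter sequence, from RefSeq (GRCh38.p14), was at hand for 43 of the 74 genes. Shown here are the 250 bases before the RefSeq start of MMP7 and PLAUR, which fell and were the only members whose window held the motif TGAGTCA, and of MMP24, the MMP with the smallest p among those that rose. TGAGTCA is the classical binding motif of AP-1, the FOS and JUN factors long known to control MMP and urokinase-system genes; it was searched on both strands, on which its other reading is TGACTCA, and it stands in capitals.
MMP7, chr11:102530748-102530997, minus strand: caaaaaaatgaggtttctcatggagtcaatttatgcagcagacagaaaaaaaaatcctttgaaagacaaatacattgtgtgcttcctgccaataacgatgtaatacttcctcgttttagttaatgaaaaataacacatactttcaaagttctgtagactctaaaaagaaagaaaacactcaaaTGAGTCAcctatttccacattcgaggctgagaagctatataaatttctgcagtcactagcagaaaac
PLAUR, chr19:43670170-43670419, minus strand: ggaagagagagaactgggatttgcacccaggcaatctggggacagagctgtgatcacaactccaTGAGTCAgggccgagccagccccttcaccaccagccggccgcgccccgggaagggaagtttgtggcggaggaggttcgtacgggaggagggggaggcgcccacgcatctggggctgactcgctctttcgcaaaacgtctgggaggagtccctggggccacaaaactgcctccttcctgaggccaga
MMP24, chr20:35226440-35226689, plus strand: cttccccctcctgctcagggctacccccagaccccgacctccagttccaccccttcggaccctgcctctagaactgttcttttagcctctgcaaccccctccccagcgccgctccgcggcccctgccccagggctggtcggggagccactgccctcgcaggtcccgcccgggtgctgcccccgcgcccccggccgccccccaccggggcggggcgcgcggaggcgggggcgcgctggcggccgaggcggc

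The motif begins 67 bases before the start of MMP7 and 186 bases before that of PLAUR. It was present in 2 of the 5 genes of the set that fell and have a promoter sequence, in 0 of 3 that rose and in 0 of 22 that were tested and not called. Among all tested genes with a promoter sequence it was present in 4.55%, and among all those that fell in 7.04%. The 5 genes are too few to set against these shares. MMP13, MMP19, ADAM28, ADAM32, ADAMTS1 and PLAT also fell but had no promoter sequence, and MMP7 was called in only 7 of 11 alternatives. The 3 windows differ widely in base composition: MMP7 has 3 CpG dinucleotides and 33.6% G and C, PLAUR 13 and 63.2%, and MMP24 25 and 77.6%, against medians of 19 and 63.6% over all tested genes. These matches describe the sequence only; binding was not measured.

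The threshold for a call was an adjusted p under 0.05 in edgeR's quasi-likelihood test of CBX7 overexpression over control, with Benjamini-Hochberg adjustment over all 17271 tested genes, and adjusted p-values below come from that test unless another is named. In bulk RNA, fewer expressing cells and less RNA per cell cannot be told apart. Of the 74 genes, 3 had no count in any library (MMP26, MMP27 and the pseudogene ADAM5), 26 including these missed the expression filter, and 48 were tested. Of the 48, 5 rose, 11 fell and 32 were not called, so 33.3% were called, against 24.4% of all tested genes. Rises made up 10.4% of the 48, against 10.5% of all tested genes, and falls 22.9%, against 13.9%; the median log2 fold change was -0.05, against -0.0002 over all tested genes. MMP13, MMP19 and ADAM20 passed the filter through the control libraries only, so a test of them was possible only because they were higher there. The counts depended on single libraries: 3 members rose and 5 fell without control library 1, 2 rose and 8 fell without CBX7 library 1, and 3 rose and 9 fell without CBX7 library 2. Over the whole table, 2729 genes were called without CBX7 library 1, against 4208 with all libraries.

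**Figure D1:**
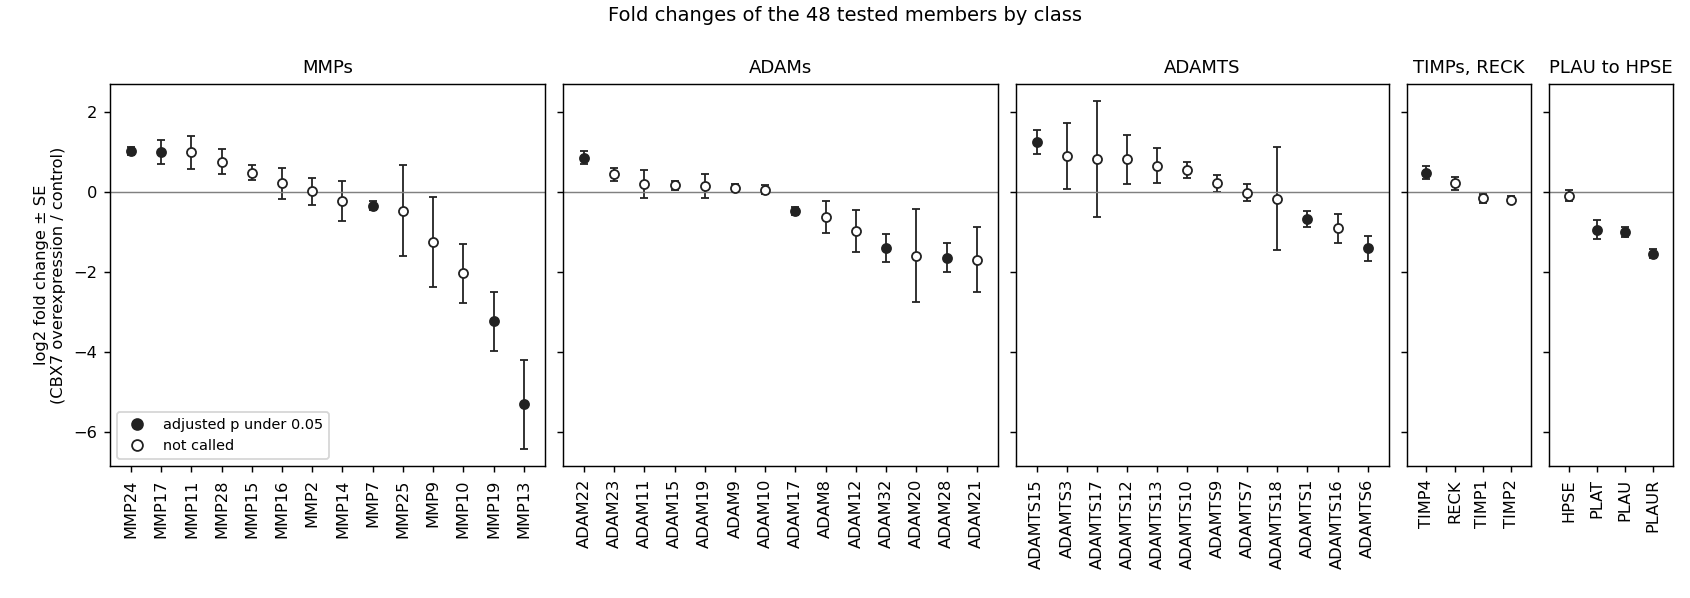
Log2 fold change of CBX7 overexpression over control for the 48 tested members, ordered within each class, with bars of 1 SE; filled points had an adjusted p under 0.05 (edgeR) and open points did not. The 16 called members are 5 rises, led by ADAMTS15 at 1.25, and 11 falls, down to MMP13 at -5.31.

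Of the 6 tested membrane-anchored MMPs, MMP24 and MMP17 rose and 4 were not called. Of the 8 tested secreted MMPs, MMP7, MMP13 and MMP19 fell and 5 were not called. MMP13 and MMP19 passed the expression filter through the control libraries only, which fixed their direction, and the call of MMP7 was lost in 4 of 11 alternatives. The difference between these subclasses was not tested. In all, 5 of 14 tested MMPs were called (35.7%, against 24.4% of all tested genes), and 3 when control library 1, CBX7 library 1 or CBX7 library 2 was left out.

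MMP24 (chromosome 20, 35226690 to 35276998, GRCh38), the membrane-type protease MT5-MMP known best from nervous tissue, had 160.4 and 165 CPM in the CBX7 libraries, against 83.9 and 76.4 CPM in the control libraries. Both CBX7 libraries were far above both controls, a 2.03-fold rise (log2 fold change 1.02, SE 0.103, adjusted p = 6.7e-06). In GENCODE v29 the gene lies wholly inside MMP24OS on the opposite strand, which had 29.3 and 29.5 CPM with CBX7, against 14.2 and 16.6 CPM in the controls (adjusted p = 0.0002); as the sources used here do not give the strandedness, reads of the pair cannot be told apart where their exons overlap.

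MMP17 (chromosome 12, 131828393 to 131851771), the lipid-anchored MT4-MMP, had 4.25 and 4.07 CPM with CBX7, against 1.75 and 2.40 CPM in the controls. The groups did not overlap (log2 fold change 1.00, SE 0.292, adjusted p = 0.0226), but leaving out control library 1 (adjusted p = 0.114), CBX7 library 1 (0.104) or CBX7 library 2 (0.0642) ended the call, within a range of 0.0139 to 0.114 over all alternatives. MMP15, or MT2-MMP, had 12.5 and 10.8 CPM with CBX7, against 9.51 and 7.18 CPM in the controls, and missed the threshold (log2 fold change 0.48, SE 0.190, adjusted p = 0.0853), which it passed in 2 of 11 alternatives (adjusted p of 0.0352 to 0.408); with 1 library left out its log2 fold change ran from 0.30 to 0.70. MMP14, or MT1-MMP, the main activator of MMP2, had 0.641 and 1.009 CPM with CBX7, against 0.882 and 1.06 CPM in the controls, so its groups overlapped (adjusted p = 0.802). Its substrate MMP2, a gelatinase, overlapped as well, with 2.14 and 1.97 CPM with CBX7 and 1.79 and 2.29 CPM in the controls (adjusted p = 0.986).

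MMP7 (chromosome 11, 102520508 to 102530747), or matrilysin, a small secreted protease of epithelia whose promoter is printed above, had 126 and 134 CPM with CBX7, against 179.7 and 150.4 CPM in the controls. This was a modest fall, 1.27-fold (log2 fold change -0.35, SE 0.109, adjusted p = 0.0328), and control library 2 lay closer to the CBX7 libraries than control library 1 did. Leaving out control library 1 (adjusted p = 0.190), CBX7 library 1 (0.218) or CBX7 library 2 (0.0849) ended the call, as did scaling by library totals (0.0737); the range over all alternatives was 0.00913 to 0.218.

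MMP13, or collagenase 3, which cuts fibrillar collagens, had 4 and 0 counts with CBX7, against 102 and 44 counts in the controls. It was barely detectable with CBX7 and low in the controls, at 0.915 ± 0.381 CPM (SD, n = 2), so the fitted log2 fold change of -5.31 (SE 1.12, adjusted p = 0.00338) is uncertain in size: over the alternatives it ran from -9.22 to -4.37, and the call was lost without control library 1 (adjusted p = 0.0748; range 3.21e-05 to 0.0748). MMP19, a secreted protease of basement membrane proteins, had 10 and 9 counts with CBX7, against 85 and 67 in the controls. The fitted fall was 9.41-fold (log2 fold change -3.23, SE 0.738, adjusted p = 0.00577). Like MMP13, it entered the test only through its control libraries, which fixed its direction. TMEM198B, which overlaps MMP19 on the opposite strand, had 6.82 and 5.155 CPM with CBX7 and 4.69 and 3.80 CPM in the controls. As strandedness is not given, reads of this pair cannot be told apart where exons overlap.

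MMP7 and MMP13 stand at the 2 ends of the MMP cluster of chromosome 11, where 9 MMP genes lie within 435 kb (102520508 to 102955732). Besides them only MMP10, or stromelysin 2, was tested, with 14 and 22 counts with CBX7, against 63 and 61 in the controls (log2 fold change -2.04, SE 0.740, adjusted p = 0.0603, not called). The other 6 genes of the cluster, MMP1, MMP3, MMP8, MMP12, MMP20 and MMP27, had at most 15 counts in any library. That maximum belonged to MMP1, the interstitial collagenase, with 15 and 0 counts with CBX7 and 0 in both controls. Thus the collagenases MMP1 and MMP8 and the stromelysin MMP3 were at or near the detection limit in both lines.

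The remaining secreted MMPs were low and not called. MMP11, or stromelysin 3, had 1.86 and 1.51 CPM with CBX7, against 0.743 and 0.953 CPM in the controls (log2 fold change 0.99, SE 0.420, adjusted p = 0.105). MMP28, or epilysin, had 3.71 and 2.79 CPM with CBX7, against 1.76 and 2.08 CPM in the controls (log2 fold change 0.76, SE 0.313, adjusted p = 0.0963). In both genes the CBX7 libraries were the higher ones without passing the threshold. Each overlaps a more abundant gene on the opposite strand. For MMP11 this is CHCHD10 (19.3 and 14.6 CPM with CBX7, 13.9 and 15.8 CPM in the controls). For MMP28 it is TAF15 (149.6 and 128.6 CPM with CBX7, 129.5 and 132.5 CPM in the controls). As strandedness is not given, reads of each pair cannot be told apart where exons overlap. The gelatinase MMP9 had 11 and 9 counts with CBX7, against 32 and 10 in the controls (adjusted p = 0.477).

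Per kilobase of exon (merged GENCODE v29 exons), nearly all MMP transcripts came from MMP7 and MMP24. MMP24 averaged 36.8 CPM per kb with CBX7 and 18.2 in the controls, MMP7 55.8 with CBX7 and 71.0 in the controls, and MMP15, next in order, 2.63 with CBX7 and 1.89 in the controls. MMP24 made up 37.4% and 37.1% of the summed MMP level in the CBX7 libraries, against 18.7% and 19.9% in the control libraries. MMP7 made up 55.7% and 57.1% in the CBX7 libraries, against 75.9% and 74.3% in the control libraries. MMP7 thus stayed the most abundant MMP transcript in all 4 libraries. The authors' own annotation may give other exon lengths; the shares are a description, with no test.

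**Figure D2:**
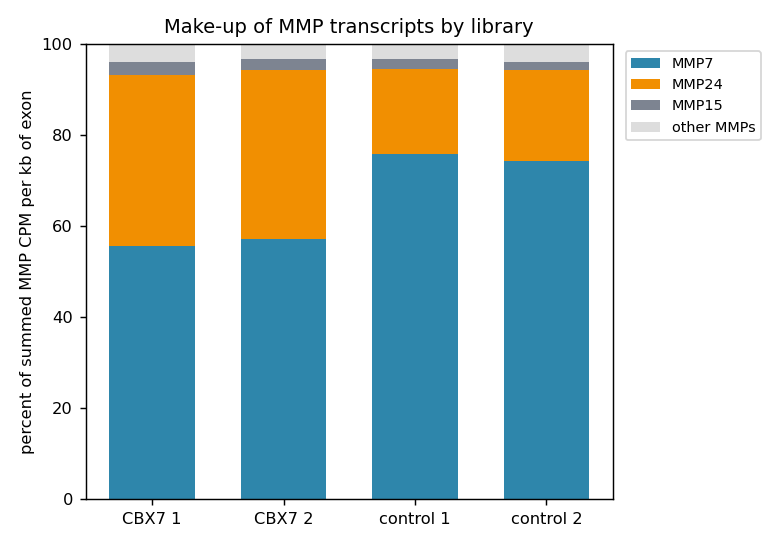
Share of the summed MMP level (CPM per kilobase of exon) taken by MMP7, MMP24, MMP15 and all other MMPs in each library. MMP24 takes 37.4% and 37.1% in the CBX7 libraries and 18.7% and 19.9% in the control libraries, and MMP7 is the largest part in each bar.

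Of the 14 tested ADAMs, ADAM22 rose, ADAM17, ADAM28 and ADAM32 fell, and 10 were not called (28.6% called, against 24.4% of all tested genes; 2 were called without control library 1). ADAM9, ADAM10 and ADAM15, abundant sheddases, were among those not called. The ADAM with the smallest p was ADAM22, which lacks the catalytic zinc motif.

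ADAM17 (chromosome 2, 9488486 to 9555830), or TACE, which releases tumour necrosis factor and several EGF receptor ligands, had 134 and 138 CPM with CBX7, against 203 and 177 CPM in the controls. The groups were clearly apart, with a 1.39-fold fall (log2 fold change -0.48, SE 0.102, adjusted p = 0.00384), called in all 11 alternatives. IAH1, which overlaps ADAM17 on the opposite strand, had 57.0 and 67.2 CPM with CBX7, against 46.5 and 52.4 CPM in the controls (adjusted p = 0.0614). The 3 abundant relatives did not pass the test. ADAM10, which cleaves Notch and cadherins, had 405 and 366 CPM with CBX7, against 394 and 345 CPM in the controls (log2 fold change 0.06, SE 0.102, adjusted p = 0.733). ADAM9 had 885 and 834 CPM with CBX7, against 856 and 741 CPM in the controls (0.11, SE 0.101, adjusted p = 0.503). ADAM15 had 107 and 113 CPM with CBX7, against 91.7 and 104.7 CPM in the controls (0.16, SE 0.108, adjusted p = 0.319). In ADAM10 and ADAM9 the groups overlapped, and in ADAM15 the CBX7 libraries were just above the controls.

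Per kilobase of exon, ADAM9 was the most abundant member of the whole set, at 124 CPM per kb with CBX7 and 116 in the controls. ADAM17 made up 6.63% and 7.17% of the summed ADAM level in the CBX7 libraries, against 10.1% and 9.89% in the control libraries. ADAM9 made up 68.2% and 67.3% with CBX7, against 66.4% and 64.5% in the controls.

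ADAM28, a protease known from lymphocytes and lung tumours, had 1.495 and 1.075 CPM with CBX7, against 5.32 and 2.73 CPM in the controls (log2 fold change -1.65, SE 0.369, adjusted p = 0.00515). Its control libraries differed from each other by more than the lower one did from the CBX7 libraries, and the call was lost without control library 1 (adjusted p = 0.106; range over alternatives 0.000383 to 0.106). ADAM32, a non-catalytic member known from testis, had 1.14 and 1.12 CPM with CBX7, against 3.51 and 2.45 CPM in the controls (log2 fold change -1.40, SE 0.350, adjusted p = 0.0102), and lost its call in the same way (0.0987; range 0.0052 to 0.0987). Both genes lie on chromosome 8, but far apart, ADAM28 at 24294069 to 24359014 and ADAM32 at 39107529 to 39284917. ADAM9, which ends at 39105261 just before ADAM32, was not called.

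The non-catalytic ADAMs ADAM22, ADAM23 and ADAM11 are known as neuronal receptors of LGI proteins. ADAM22 (chromosome 7, 87934251 to 88202889) had 17.98 and 20.4 CPM with CBX7, against 11.5 and 9.60 CPM in the controls. It was higher in both CBX7 libraries by a clear margin (1.82-fold, log2 fold change 0.86, SE 0.158, adjusted p = 0.00132) and was called in all 11 alternatives. ADAM23 had 18.1 and 19.1 CPM with CBX7, against 12.0 and 15.3 CPM in the controls (log2 fold change 0.44, SE 0.157), and fell just short of the threshold at an adjusted p of 0.0546. It passed in 6 of 11 alternatives (adjusted p of 0.0179 to 0.233), among them limma-voom (0.0459), library totals (0.0285) and no low-count filter (0.0379). ADAM11 had 3.02 and 1.78 CPM with CBX7 and 2.12 and 2.08 CPM in the controls, so the CBX7 libraries lay on both sides of the controls (adjusted p = 0.754).

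Among the low ADAMs that were tested and not called, ADAM8 had 112 and 106 counts with CBX7, against 200 and 92 in the controls. ADAM12 had 46 and 57 counts with CBX7, against 91 and 79 in the controls (adjusted p = 0.201). ADAM21 had 19 and 18 counts with CBX7, against 72 and 32 in the controls (adjusted p = 0.149). These levels lay between 0.201 and 1.84 CPM on average, where 2 libraries a group give wide errors. The 8 untested ADAMs had at most 22 counts in any library, a value of ADAM30, which is known from testis.

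**Figure D3:**
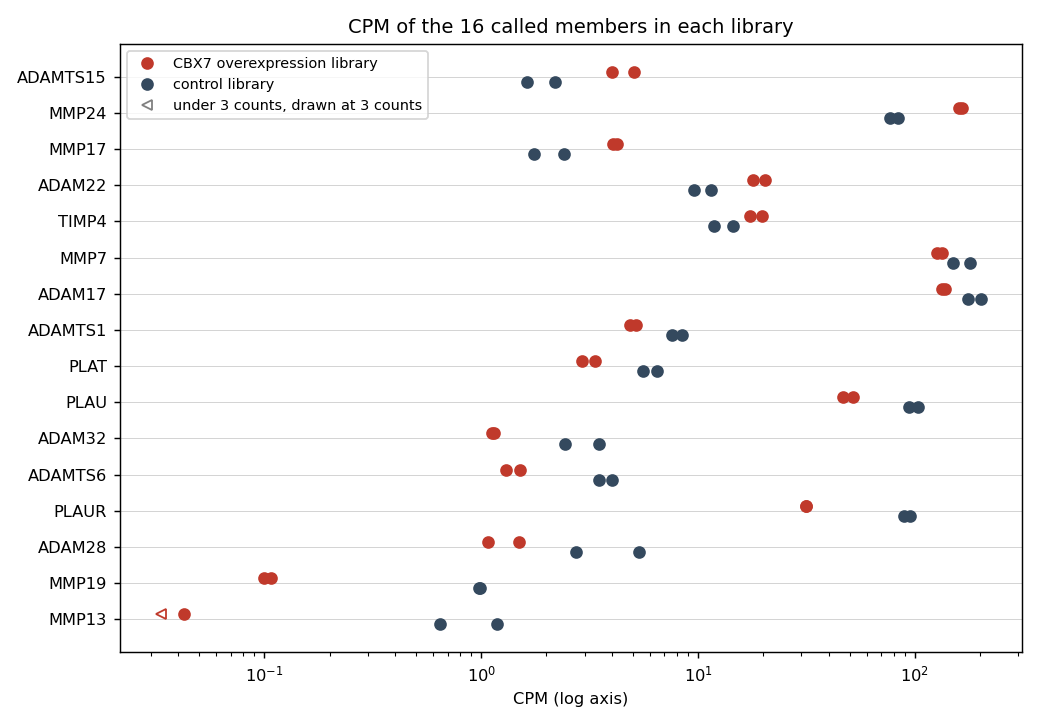
CPM of the 16 called members in each library on a log axis, with CBX7 overexpression libraries in red and control libraries in dark grey, ordered by log2 fold change. With 2 libraries per group, selection by a call favours groups that do not overlap, so their separation here adds no support. Groups that do not overlap were also common among tested members that were not called and are not drawn. MMP10, MMP15, ADAM15, ADAM23, ADAMTS10, TIMP1, TIMP2, RECK and HPSE are examples. The share of such genes over all tested genes was not counted. The open triangle marks 0 counts of MMP13, drawn at the level of 3 counts.

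Of the 12 tested ADAMTS genes, ADAMTS15 rose, ADAMTS1 and ADAMTS6 fell and 9 were not called (25.0% called, against 24.4% of all tested genes; 1 was called without control library 1 and 1 without CBX7 library 1). ADAMTS1 and ADAMTS15 both belong to the branch that cleaves the proteoglycans aggrecan and versican, and they moved in opposite directions. Only 1 procollagen-processing ADAMTS was tested, ADAMTS3, and it was not called (adjusted p = 0.483). It was low, with 39 and 66 counts with CBX7 and 40 and 10 in the controls.

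ADAMTS15 (chromosome 11, 130448645 to 130476645) had 5.09 and 4.00 CPM with CBX7, against 1.63 and 2.198 CPM in the controls, a 2.38-fold rise (log2 fold change 1.25, SE 0.296, adjusted p = 0.00728). It was not called when control library 1 (adjusted p = 0.0505) or CBX7 library 1 (0.0726) was left out (range over alternatives 0.00191 to 0.0726). Its neighbour in the genome, ADAMTS8, had 17 and 2 counts with CBX7 and 6 and 4 in the controls and was not tested.

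ADAMTS1 (chromosome 21, 26835755 to 26845409) had 4.87 and 5.17 CPM with CBX7, against 8.45 and 7.55 CPM in the controls, a 1.59-fold fall (log2 fold change -0.67, SE 0.205, adjusted p = 0.0281). Although both groups were tight, the call ended when control library 1 (adjusted p = 0.120), CBX7 library 1 (0.170) or CBX7 library 2 (0.117) was left out (range over alternatives 0.0134 to 0.170). Its neighbour ADAMTS5, a major aggrecanase of cartilage, had 7 and 0 counts with CBX7 and 4 and 9 in the controls.

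ADAMTS6 (chromosome 5, 65148738 to 65481920) had 1.30 and 1.51 CPM with CBX7, against 3.49 and 4.00 CPM in the controls. It fell 2.66-fold (log2 fold change -1.41, SE 0.310, adjusted p = 0.00448) and was called in all 11 alternatives. Its closest relative ADAMTS10, which binds fibrillin, had 8.77 and 10.2 CPM with CBX7, against 6.27 and 6.70 CPM in the controls (log2 fold change 0.55, SE 0.192). At an adjusted p of 0.0516 ADAMTS10 just missed the threshold, which it passed in 4 of 11 alternatives (adjusted p of 0.0293 to 0.352). ADAMTS7 and ADAMTS9 had groups that overlapped, with mean levels of 7.85 and 7.43 CPM with CBX7 and of 7.94 and 6.39 CPM in the controls. The 7 untested ADAMTS genes had at most 31 counts in any library.

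Among the inhibitors, TIMP4 rose, TIMP1, TIMP2 and RECK were not called, and TIMP3 had 3 counts in control library 2 and 0 in the other libraries. That is 1 of 4 tested (25.0%, against 24.4% of all tested genes), and 0 when control library 1, CBX7 library 1 or CBX7 library 2 was left out. TIMP4 (chromosome 3, 12153068 to 12158912), best known from heart, had 17.3 and 19.6 CPM with CBX7, against 11.9 and 14.5 CPM in the controls. The rise was 1.40-fold (log2 fold change 0.48, SE 0.157, adjusted p = 0.0374), and it was not called when control library 1 (adjusted p = 0.150), CBX7 library 1 (0.0734) or CBX7 library 2 (0.266) was left out (range over alternatives 0.0190 to 0.266). SYN2, which spans TIMP4 on the opposite strand, had 0.865 and 1.12 CPM with CBX7 and 0.697 and 0.850 CPM in the controls.

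TIMP1, a broad inhibitor of soluble MMPs, had 104.5 and 99.2 CPM with CBX7, against 108.5 and 119 CPM in the controls (log2 fold change -0.16, SE 0.105, adjusted p = 0.308). TIMP2, which also takes part in activating the MMP2 precursor, had 316 and 299 CPM with CBX7, against 357 and 344 CPM in the controls (-0.19, SE 0.0925, adjusted p = 0.155). RECK, a membrane-bound inhibitor of several MMPs, had 12.2 and 12.8 CPM with CBX7, against 12.0 and 9.48 CPM in the controls (0.21, SE 0.172, adjusted p = 0.416). In these 3 genes the groups stood close together, and none passed the test in any alternative. Per kilobase of exon, TIMP1 was at 66.1 CPM per kb with CBX7 and 73.8 in the controls and TIMP2 at 54.5 with CBX7 and 62.3 in the controls, against 11.2 with CBX7 and 8.01 in the controls for TIMP4.

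Of all falls in the set, those of PLAUR and PLAU had the smallest p. The 3 genes of plasminogen activation, PLAU, PLAUR and PLAT, all fell, and with HPSE, which was not called, 75.0% of that class of 4 were called, against 24.4% of all tested genes. PLAUR (chromosome 19, 43646095 to 43670169), the cell surface receptor that concentrates urokinase, had 31.6 and 31.4 CPM with CBX7, against 88.9 and 95.4 CPM in the controls. Each group was tight, and the fall was 2.93-fold (log2 fold change -1.55, SE 0.110, adjusted p = 1.57e-07). PLAU (chromosome 10, 73908832 to 73917494), urokinase itself, had 46.4 and 52.1 CPM with CBX7, against 93.6 and 103.7 CPM in the controls, a 2.00-fold fall (log2 fold change -1.002, SE 0.114, adjusted p = 2.09e-05). C10orf55, which overlaps PLAU on the opposite strand, had 0.758 and 0.887 CPM with CBX7 and 1.68 and 0.982 CPM in the controls. PLAU and PLAUR were called in all 11 alternatives. PLAT, tissue plasminogen activator, had 2.93 and 3.36 CPM with CBX7, against 6.50 and 5.55 CPM in the controls (log2 fold change -0.94, SE 0.244, adjusted p = 0.0123); its call ended when control library 1 (adjusted p = 0.0774) or CBX7 library 1 (0.0909) was left out (range over alternatives 0.00444 to 0.0909). HPSE, which cuts the heparan sulfate chains of proteoglycans, had 14.3 and 14.4 CPM with CBX7, against 14.9 and 15.7 CPM in the controls (log2 fold change -0.09, SE 0.145, adjusted p = 0.709).

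Other genes that activate, bind, carry, clear or block these proteases were taken from a list of 31, of which 26 were tested; 4 rose, 4 fell and 18 were not called (30.8% called, against 24.4% of all tested genes; median log2 fold change 0.14), and 5 were called without CBX7 library 1. SERPINE2, or nexin-1, an inhibitor of urokinase and thrombin, had 72.0 and 70.5 CPM with CBX7, against 96.3 and 112 CPM in the controls (log2 fold change -0.55, SE 0.112, adjusted p = 0.00286). It thus fell, as did both activators and the receptor. SERPINF2, or antiplasmin, rose instead (log2 fold change 1.09, SE 0.342, adjusted p = 0.0325). Its level was 4.785 and 4.39 CPM with CBX7, against 1.37 and 2.946 CPM in the controls, which lay well apart. No range over the alternatives is given for SERPINF2. LRP1, which clears protease and inhibitor complexes from the cell surface, had 49.9 and 48.7 CPM with CBX7, against 32.3 and 37.8 CPM in the controls (log2 fold change 0.49, SE 0.120, adjusted p = 0.00855); the call ended when CBX7 library 1 was left out (adjusted p = 0.0627; range over alternatives 0.00117 to 0.0627). The precursor of plasmin itself, PLG, was low, with 24 and 23 counts with CBX7, against 11 and 0 counts in the controls (adjusted p = 0.350).

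**Figure D4:**
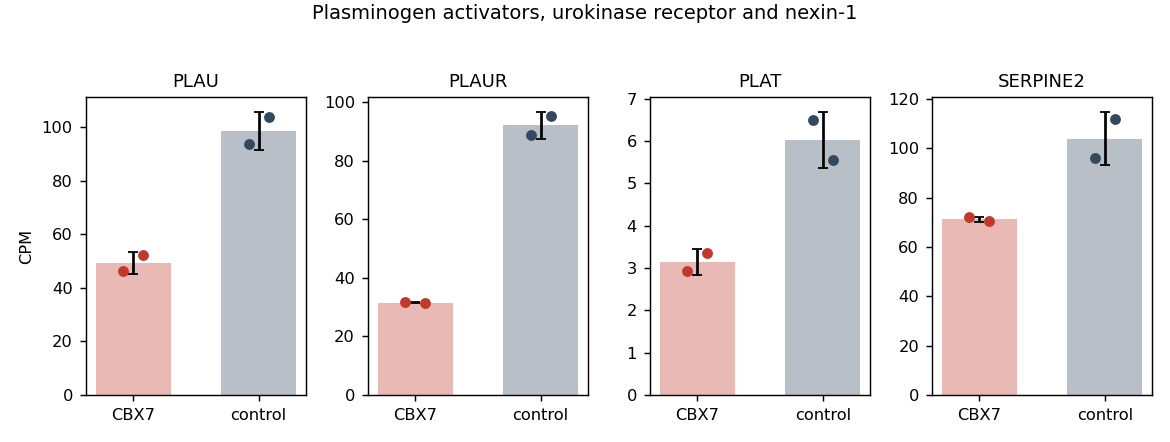
CPM of PLAU, PLAUR, PLAT and the inhibitor SERPINE2, with CBX7 overexpression left and control right in each panel; bars are means, error bars 1 SD (n = 2) and points single libraries, and each panel has its own scale starting at 0. All 4 genes are lower with CBX7, PLAUR at 31.6 and 31.4 CPM with CBX7 against 88.9 and 95.4 CPM in the controls.

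RHBDF2, or iRhom2, which carries ADAM17 to the cell surface, had 34.6 and 30.5 CPM with CBX7, against 50.8 and 49.5 CPM in the controls (log2 fold change -0.62, SE 0.118, adjusted p = 0.00162), a fall like that of ADAM17 in direction. The other carrier of ADAM17, RHBDF1 or iRhom1, was not called (-0.19, SE 0.123, adjusted p = 0.301). Nor was FRMD8, a partner of the iRhoms (0.035, SE 0.122, adjusted p = 0.881). TFPI2, a matrix-bound serine protease inhibitor, had 498 and 530 CPM with CBX7, against 868 and 707 CPM in the controls (-0.62, SE 0.109, adjusted p = 0.00103). SDC1 and SDC4, the only syndecans in the list, moved apart. Syndecans are heparan sulfate proteoglycans that several of these enzymes shed or trim. SDC1 had 294.5 and 275 CPM with CBX7, against 174 and 207 CPM in the controls (0.58, SE 0.103, adjusted p = 0.00105). SDC4 had 32.9 and 35.4 CPM with CBX7, against 73.8 and 71.7 CPM in the controls (-1.09, SE 0.110, adjusted p = 6.34e-06). The most abundant genes of the list that were not called were BSG, an inducer of MMPs (527 and 545 CPM with CBX7 and 415 and 472 CPM in the controls, adjusted p = 0.0608), and the ADAM10 partners TSPAN14 (adjusted p = 0.507) and TSPAN15 (adjusted p = 0.103). BSG passed the threshold in 7 of 11 alternatives, DESeq2 among them (adjusted p = 0.0185; range 0.0185 to 0.275).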

How the data were processed

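RNA was sequenced from 4 libraries, 2 per group. The table deposited by the authors holds estimated counts, 1 per gene and library; build hg38, StringTie 2.2.1, HISAT2 2.2.1 and DESeq2 are named, without roles, in the submitters' processing notes. Annotation, strandedness and the handling of shared reads are not stated there or in the labels. All values were whole, so rounding changed 0 of them; a 0 can be a failed estimate.

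After filterByExpr and TMM scaling, all 4 libraries entered a fit with edgeR 4.0.16 (R 4.3.3; robust quasi-likelihood, group as the only term, Benjamini-Hochberg over 17271 genes, threshold 0.05). Each SE is the log2 fold change divided by the root of F. Alternatives were DESeq2 1.42.0, its size factors, library totals, no low-count filter, a mean count of 50 or more, limma-voom (limma 3.58.1), a replicate block and each library left out. The fits that keep all 4 libraries were also run on simulated counts. The outcome is not given here, so it lends the calls no support. Replicates differed beyond sampling noise (chi-square over degrees of freedom 45.5 with CBX7 and 58.5 in controls).

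Members and lists were chosen with earlier results of these data known. Named were CBX7, every called member, every member at 10 CPM or more in a group and, from the list of other genes, up to 6 called with the smallest p and up to 3 abundant ones not called; other genes were named after their values were seen. Part of that list is not reported here. Coordinates and promoters are RefSeq GRCh38.p14. Precision is limited by 2 libraries per group, and detection floors of 3 counts cover counting error only.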

Additional observations from a re-analysis of the deposited data

How the results depend on the processing

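DESeq2 and edgeR with DESeq2 size factors called the same 16 members. Of the 16, ADAM17, ADAM22, ADAMTS6, MMP24, PLAU and PLAUR were called in all 11 alternatives. With a mean count of 50 or more, 8 members rose, against 5, and MMP13 and MMP19 were not tested, having too few counts. With library totals 2487 genes rose and 2033 fell over the whole table, against 1809 and 2399, and 7 members rose and 10 fell. With CBX7 library 1 left out 10 of the 16 member calls remained, and with CBX7 library 2 left out 12 did; omitting control library 1 kept 7 and omitting control library 2 kept 16. Leaving out 1 library gave 2729 to 3924 called genes over the whole table, 1021 to 1790 of them higher; 2 to 6 members that rose and 5 to 11 that fell; 3 to 5 called MMPs, 2 to 5 ADAMs, 1 to 3 ADAMTS genes, 0 to 1 of the TIMPs and RECK and 5 to 10 of the list of other genes. Fewer libraries leave fewer degrees of freedom. The sign turned for ADAM10, not called in any setting, without control library 2 (log2 fold change -0.0239) and without CBX7 library 1 (-0.0103), within -0.0239 to 0.164 over the libraries left out, and for TSPAN14 without control library 1 (-0.00445, within -0.00445 to 0.234). Deviations of same-numbered libraries correlated at 0.0281. With 2 libraries per group the deviations in a group mirror each other, so both pairs give this same value. It cannot tell whether same-numbered libraries share a batch or culture. With the replicate as a block 4603 genes and 18 members were called, 7 higher and 11 lower. These were 5 MMPs, 5 ADAMs, 4 ADAMTS genes, 1 of the TIMPs and RECK and 3 of PLAU, PLAUR, PLAT and HPSE. Of the list of other genes 9 were called with the block, and none of the 16 member calls was lost. With 2 libraries per group, rare members are measured poorly: the SE of ADAMTS17 was 1.45 on the log2 scale.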
